A study of Mus musculus with 6 samples.

Results

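The genes described here encode the proteins that recognise introns and assemble the spliceosome. They were taken from the mRNA tables by symbol: the SR protein genes (Srsf), their relatives Tra2a and Tra2b, the hnRNP genes (Hnrnp), the snRNP protein genes (Snrp), the SF3A and SF3B genes of the U2 particle, the Prpf genes and the U2AF genes. The symbol rule found 70 of 11609 listed mRNA genes, under 69 symbols. It used no measured value, but the gene families were chosen with earlier results of these data known. Of the 70 genes, 69 had a level of 1 FPKM or more (fragments scaled by transcript length and library size) in 3 or more of the 6 libraries and were tested. The symbol U2af1l4 names both ENSMUSG00000078765.11, which was tested, and ENSMUSG00000109378.1, an overlapping gene model on the same strand that reached at most 1.10 FPKM and was left out. The rule does not take symbols spelled Snrnp, such as Snrnp70, which are counted among the other splicing genes.

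The cells were N2a, a mouse neuroblastoma line, which the labels list as neurons after differentiation. All 6 libraries came from cells kept for 96 h in 10 µM retinoic acid with 2% serum. The 3 control libraries received the solvent DMSO, and the 3 others received 5 µM RSL3, which blocks the lipid peroxidase GPX4 and induces ferroptosis, for 24 h. The labels do not say if replicates were separate cultures, so each p-value sets a difference against the spread between these libraries, which may be technical. Changes in RNA per cell and in the number of cells of a kind cannot be told apart in such bulk libraries.

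Introns are removed by the spliceosome, which is built on each pre-mRNA from small nuclear ribonucleoproteins (snRNPs), each a small nuclear RNA with its proteins. The U1 particle pairs with the 5′ splice site, U2AF marks the 3′ end of the intron, and U2 with its SF3A and SF3B complexes takes the branch point before the tri-snRNP of U4, U6 and U5 joins. SR proteins mostly bind exons and promote their inclusion, whereas hnRNP proteins often act against it, and many of both families tune their own mRNA through exons that lead to its decay.

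Stretches of the promoters of 3 genes that fell with RSL3 are shown to place them in the genome: Sf3a1 of U2, U2af1 of the 3′ splice site factor and Snrpa of U1. They are read 5′ to 3′ on the strand of the gene from RefSeq promoters on GRCm38.p6 and avoid annotated exons but for up to 10 bases at their 3′ end. Capitals mark CCGGAAG (the core that ETS factors bind), TGACGT (the core that CREB and ATF factors bind) and GGGCGG (a GC box) on either strand. In Snrpa the TGACGT matches of the 2 strands overlap. A further RefSeq promoter of Snrpa, chr7:27195761-27196010, held none of these motifs and is not shown. The promoter of Snrpf, which also fell, held none of them either. A further promoter of U2af1, chr17:31658755-31659004, held TGACGT outside the stretch shown.
Sf3a1, chr11:4160294-4160353, plus strand: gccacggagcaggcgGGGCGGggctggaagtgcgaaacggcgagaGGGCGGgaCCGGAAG
U2af1, chr17:31658883-31659014, minus strand: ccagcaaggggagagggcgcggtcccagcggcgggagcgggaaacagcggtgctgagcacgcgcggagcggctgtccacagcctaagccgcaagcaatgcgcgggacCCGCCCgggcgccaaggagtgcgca
Snrpa, chr7:27196272-27196521, minus strand: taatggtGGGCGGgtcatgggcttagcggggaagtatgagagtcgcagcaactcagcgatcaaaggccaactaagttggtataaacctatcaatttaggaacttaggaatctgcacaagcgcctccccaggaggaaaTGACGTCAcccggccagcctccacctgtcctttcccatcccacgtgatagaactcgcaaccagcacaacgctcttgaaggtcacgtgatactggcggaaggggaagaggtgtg

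Promoters were found for 60 of the 69 symbols, 81 windows of 250 bases before a start, so some genes count more than once. CCGGAAG or its reverse complement was present in 27.2% of these windows, in 14.6% of those of all tested genes and in 6.91% of all promoters in the table. TGACGT was present in 18.5%, 10.2% and 6.47%, and GGGCGG in 63.0%, 60.2% and 32.7%. CCAAT was present in 46.9%, 36.1% and 33.8%, and TATAAA in 7.41%, 5.70% and 12.4%. TTTCCCGC, the core that E2F factors bind, was present in 8.64%, 1.78% and 0.895%. The letters TGACNNNGC of the antioxidant response element were present in 11.1% of the splicing factor windows, 11.8% of those of tested genes and 10.2% of all promoters. A match of letters is a description and not a site.

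The 2 groups also differed in measures outside these genes. Summed mRNA values ranged from 220605 to 225295 FPKM with DMSO and from 200135 to 213765 with RSL3, and read depth is unknown. The neuroblastoma and neuron list had 11 of 12 markers listed, Nefl not among them, and summed to between 485 and 493 FPKM with DMSO and between 386 and 464 with RSL3. All 8 liver markers were listed, summing to between 52.4 and 71.4 FPKM with DMSO and between 12.3 and 23.1 with RSL3, while 1 of 7 glial (Mbp), 1 of 5 fibroblast (Col1a1) and 0 of 4 immune markers were listed. The lncRNAs Gm26917 and Gm42418, which overlap ribosomal RNA sequence, together ranged from 18793 to 22979 FPKM with DMSO and from 26639 to 33129 with RSL3. The share of mitochondrial mRNAs was 5.84% ± 0.427 in the DMSO group and 5.04% ± 1.17 in the RSL3 group (SD, n = 3). Here the groups overlapped, with 5.45% to 6.29% in DMSO and 3.97%, 6.29% and 4.85% in RSL3 replicates 1, 2 and 3. The part of these differences in the results was not tested.

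As a group the splicing factor genes stood lower with RSL3, by small amounts. The set was chosen with earlier results of these data known, so the counts below describe it and do not test it. In the limma fit over all 10590 tested genes 7 of the 69 fell and 0 rose at an adjusted p under 0.05, which is 10.1%, where 3.92% of all tested genes fell and 2.46% rose. The 7 were Sf3a1, Snrpa, Snrpb, Snrpf, U2af1, Prpf3 and Hnrnpl. Fitted differences were below 0 for 65 of the 69, where 56.4% of all tested genes were below 0. The median difference on the log2(FPKM + 1) scale was -0.19, where that of all tested genes was -0.031, and single genes ranged from -0.57 to 0.23. For 32 genes, 46.4%, every RSL3 library lay below every DMSO library, which held for 19.6% of all tested genes. None of the 69 had every RSL3 library above every DMSO library, which held for 13.4%. Summed over the 70 genes, the level was 2904, 2913 and 2829 FPKM in DMSO replicates 1, 2 and 3 and 2422, 2657 and 2472 FPKM in RSL3 replicates 1, 2 and 3. As a share of all mRNA levels that was 1.29% ± 0.00642 in the DMSO group and 1.21% ± 0.0381 in the RSL3 group (SD, n = 3). The 4 genes with a difference above 0 were Prpf40b (0.23), Hnrnpa0 (0.064), Srsf5 (0.062) and Sf3b4 (0.0049), and none of them passed.

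The calls depended on the libraries. With a DMSO library left out, 0 of the 69 passed in limma: the lowest adjusted p was 0.0809 without DMSO replicate 1, 0.0831 without DMSO replicate 2 and 0.0821 without DMSO replicate 3, and 22, 21 and 24 genes had an unadjusted p under 0.05. In these fits 1.24%, 0.916% and 0.925% of all tested genes fell, and 16.2%, 17.1% and 17.6% had an unadjusted p under 0.05 in either direction. Leaving out RSL3 replicate 3 also left 0 (lowest adjusted p 0.0537, 24 genes with an unadjusted p under 0.05), where 1.24% of all tested genes fell and 19.5% had an unadjusted p under 0.05. Without RSL3 replicate 1, 18 fell and 0 rose (26.1%, where 7.16% of all tested genes fell and 5.11% rose). Without RSL3 replicate 2, 11 fell and 0 rose (15.9%, where 4.12% fell and 2.84% rose). After quantile normalization 1 fell and 0 rose (1.45%, where 3.11% fell and 3.31% rose). With median-ratio scaling 5 fell and 0 rose (7.25%, where 3.45% fell and 2.84% rose): Sf3a1, Snrpb and U2af1 again passed, Snrpa, Snrpf, Prpf3 and Hnrnpl did not, and Srsf2 and Srsf7 were added. Without RSL3 replicate 1 the differences of 38 of the 69 genes moved by over 1.5 times or turned in sign. The median difference of the 69 stayed between -0.25 and -0.15 without single libraries and was -0.12 after quantile normalization.

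**Figure D1:**
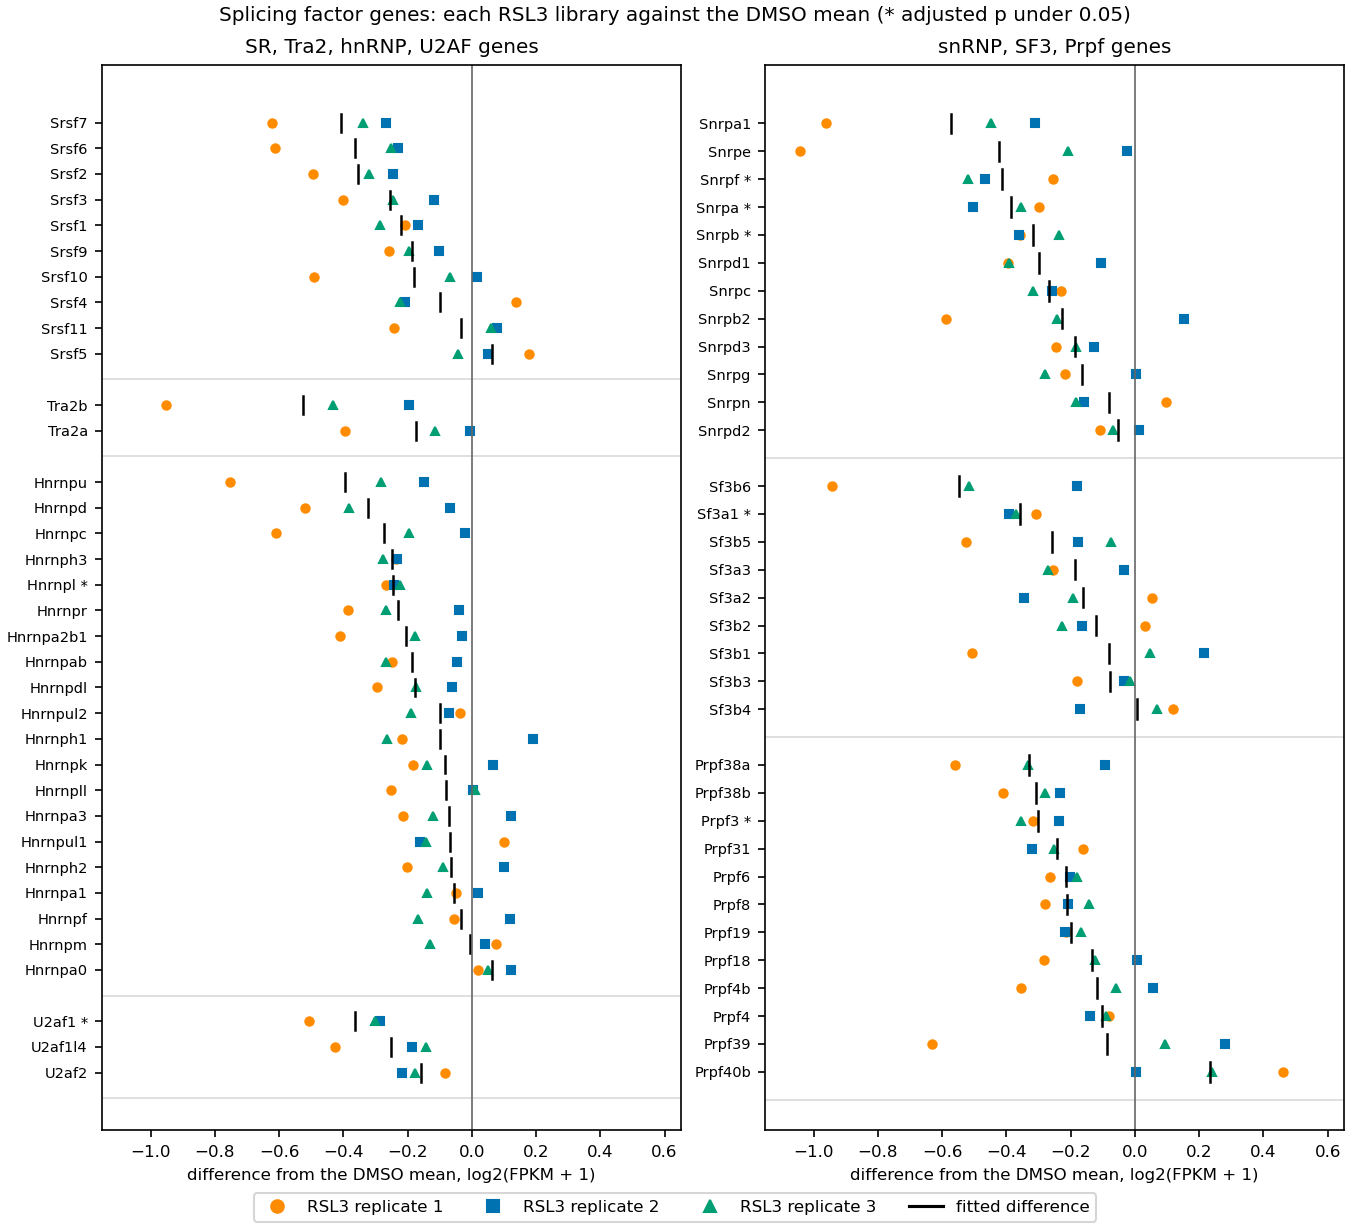
Difference of each RSL3 library from the mean of the 3 DMSO libraries on the log2(FPKM + 1) scale (horizontal axis) for 68 of the 69 tested splicing factor genes, by class. Points are RSL3 libraries, black ticks the fitted difference, and stars mark the 7 genes past the threshold; most points lie left of 0, and RSL3 replicate 1 (orange) reaches -1.04 for Snrpe and 0.46 for Prpf40b.

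The Snrp genes, which encode the Sm ring and proteins of U1 and U2, had 3 of 12 genes past the threshold, all lower. Their median difference was -0.28 on the log2 scale. With trends in GC content and transcript length removed the median was -0.12 and 2 fell (all tested genes: 9.1%). After quantile normalization the median was -0.21 and 0 fell (all tested genes: 3.11%). Every fitted difference in the class was below 0 (11 of 12 after quantile normalization or with trends in GC content and transcript length removed), and in 7 of the 12 genes all RSL3 libraries lay below all DMSO libraries. Over all tested genes 3.92% fell, 56.4% had a difference below 0, and 19.6% had all RSL3 libraries below all DMSO libraries. Snrpa (ENSMUSG00000061479.15, chromosome 7, 27187005 to 27196271, minus strand) encodes the A protein of U1, which binds a stem-loop of U1 RNA. It measured 37.7, 39.4 and 37.5 FPKM with DMSO and 30.9, 26.6 and 29.7 FPKM with RSL3. All 3 RSL3 libraries were below the lowest DMSO library, and Snrpa fell by 0.39 ± 0.072 on the log2 scale (adjusted p = 0.0247); here and below, ± after a log2 difference is its SE and adjusted p-values are from limma with Benjamini-Hochberg adjustment.

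Snrpb and Snrpf encode subunits of the Sm ring, the heptamer that wraps the RNA of U1, U2, U4 and U5. Snrpb (ENSMUSG00000027404.15, chromosome 2, 130171414 to 130179403, minus strand) measured 68.6, 70.2 and 68.1 FPKM with DMSO and 53.6, 53.5 and 58.4 FPKM with RSL3. It fell by 0.32 ± 0.06 on the log2 scale (adjusted p = 0.0255), with the RSL3 libraries all under the DMSO libraries. Snrpf (ENSMUSG00000020018.6, chromosome 10, 93583029 to 93589706, minus strand) measured 125, 129 and 125 FPKM with DMSO and 106, 91.2 and 87.9 FPKM with RSL3. It fell by 0.41 ± 0.079 on the log2 scale (adjusted p = 0.0264), and RSL3 replicate 1 was the nearest of the 3 to the DMSO libraries. With the trends in GC content and transcript length removed, Snrpf stood at -0.18 (adjusted p = 0.517), while Snrpb stood at -0.32 (0.0176) and Snrpa at -0.40 (0.00298).

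The other 5 subunits of the ring did not pass. Snrpd1 measured 97.3, 99.3 and 97.1 FPKM with DMSO and 74.2, 90.9 and 74.4 FPKM with RSL3 (-0.30 ± 0.087, adjusted p = 0.0900), with all RSL3 libraries lower, and stood at -0.077 with trends removed (adjusted p = 0.511). Snrpe differed most between RSL3 libraries, at 40.1, 40.0 and 35.9 FPKM with DMSO and 18.2, 37.9 and 33.3 FPKM with RSL3 (-0.42 ± 0.24, adjusted p = 0.332). RSL3 replicate 1 held the lowest level of Snrpe by far, while RSL3 replicate 2 lay within the DMSO range, and without RSL3 replicate 1 Snrpe stood at -0.12 (adjusted p = 0.360). Snrpd3, Snrpg and Snrpd2 had differences of -0.19, -0.17 and -0.054. Snrpe, Snrpf, Snrpg and Hnrnpa1 have near-identical processed copies in the mouse genome, and reads shared with such copies make their values uncertain.

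Among the particle-specific genes, Snrpc of U1 measured 12.2, 11.7 and 11.6 FPKM with DMSO and 9.96, 9.75 and 9.33 FPKM with RSL3 (-0.27 ± 0.067, adjusted p = 0.0619) and stood at -0.12 with trends removed (adjusted p = 0.267). Snrpa1, of the U2 particle, had the lowest difference of all 69, with 19.3, 19.6 and 19.7 FPKM with DMSO and 9.57, 15.6 and 14.1 FPKM with RSL3. Its groups did not overlap, but the RSL3 libraries were spread (-0.57 ± 0.16, adjusted p = 0.0773), and without RSL3 replicate 1 it stood at -0.38 (adjusted p = 0.0142). Snrpb2, whose product pairs with that of Snrpa1 on U2 RNA, overlapped between the groups, with 6.57, 11.7 and 8.63 FPKM in RSL3 (-0.23 ± 0.18, adjusted p = 0.484). Snrpn, an imprinted gene for an Sm protein that takes the place of SmB in neurons, measured 19.6, 21.9 and 19.5 FPKM with DMSO and 21.8, 18.1 and 17.8 FPKM with RSL3 (-0.082 ± 0.095, adjusted p = 0.650). RSL3 replicate 1 was the highest RSL3 library for Snrpn and lay within the DMSO range, and the difference was 0.011 with GC and length trends removed.

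The U2 complexes SF3A and SF3B clamp U2 onto the branch point. Sf3a1 (ENSMUSG00000002129.11, chromosome 11, 4160350 to 4182541, plus strand), a subunit of SF3A, had the lowest adjusted p of the 69. It measured 53.2, 54.0 and 53.9 FPKM with DMSO and 43.2, 40.6 and 41.3 FPKM with RSL3. The libraries of each group lay close together, and Sf3a1 fell by 0.36 ± 0.055 on the log2 scale (adjusted p = 0.0140). After quantile normalization it was the only gene of the 69 to pass (-0.27, adjusted p = 0.0381).

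The other SF3 genes did not pass. Of the 9 differences of the class, which had a median of -0.16, 8 were below 0, where 56.4% of all tested genes were. Sf3b6, whose product sits at the branch point, measured 24.1, 24.1 and 22.0 FPKM with DMSO and 11.7, 20.5 and 16.0 FPKM with RSL3 (-0.55 ± 0.18, adjusted p = 0.114). Sf3b1, the large scaffold of SF3B, measured 14.3, 14.7 and 13.7 FPKM with DMSO and 9.70, 16.6 and 14.7 FPKM with RSL3 (-0.082 ± 0.17, adjusted p = 0.818). RSL3 replicate 1 was the lowest library for Sf3b1 and RSL3 replicate 2 the highest. Sf3a2 and Sf3b2, further subunits of these complexes, stood the other way in RSL3 replicate 1. Sf3a2 measured 47.7, 35.9 and 40.0 FPKM in RSL3 replicates 1, 2 and 3, and 44.6 to 46.6 FPKM with DMSO (-0.16 ± 0.10, adjusted p = 0.382). Sf3b2 measured 91.6, 79.9 and 76.4 FPKM in the same RSL3 libraries and 89.2 to 90.2 FPKM with DMSO (-0.12 ± 0.076, adjusted p = 0.386). In both genes RSL3 replicate 1 alone stood above the DMSO libraries. Without it they passed, at -0.27 for Sf3a2 (adjusted p = 0.0398) and -0.20 for Sf3b2 (adjusted p = 0.0398), in a fit where 7.16% of all tested genes fell.

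U2AF pairs a small subunit that reads the AG at the end of the intron with a large subunit that binds the pyrimidine tract before it. Of the 3 tested U2AF genes 1 fell, where 3.92% of all tested genes fell. U2af1 (ENSMUSG00000061613.12, chromosome 17, 31647081 to 31658892, minus strand), the small subunit, measured 158, 146 and 141 FPKM with DMSO and 104, 121 and 120 FPKM with RSL3. The groups were apart, and U2af1 fell by 0.36 ± 0.08 on the log2 scale (adjusted p = 0.0431). The large subunit gene U2af2 measured 54.5, 55.0 and 55.2 FPKM with DMSO and 51.8, 47.1 and 48.5 FPKM with RSL3. Its groups did not overlap either, without passing (-0.16 ± 0.059, adjusted p = 0.156), and it passed without RSL3 replicate 1 (-0.20, adjusted p = 0.0378). U2af1l4, a paralog of the small subunit, stood at -0.25 ± 0.11, adjusted p = 0.211, and how reads were split with the overlapping model of the same symbol is not known.

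Prpf genes encode proteins of the tri-snRNP and of the steps around it. Of 13 genes 1 fell (7.69%, where 3.92% of all tested genes fell). Prpf3 (ENSMUSG00000015748.13, chromosome 3, 95830124 to 95855885, minus strand), a U4/U6 protein, measured 14.9, 14.6 and 15.4 FPKM with DMSO and 11.8, 12.5 and 11.5 FPKM with RSL3. It fell by 0.30 ± 0.068 on the log2 scale (adjusted p = 0.0460), with all RSL3 libraries below the DMSO libraries, and stood at -0.24 with trends removed (adjusted p = 0.0547). The class median was -0.21, 12 of 13 differences were below 0, and in 7 of 13 genes all RSL3 libraries lay below all DMSO libraries. Over all tested genes 56.4% had a difference below 0, and 19.6% had all RSL3 libraries below all DMSO libraries. Prpf8, the large protein at the heart of U5, measured 94.1, 101 and 97.3 FPKM with DMSO and 80.0, 84.2 and 88.2 FPKM with RSL3 (-0.21 ± 0.062, adjusted p = 0.0900). All its RSL3 libraries were lower than its DMSO libraries, a difference of -13.7% in the mean. Prpf38b, the gene of another spliceosomal protein, measured 6.47, 6.08 and 5.91 FPKM with DMSO and 4.37, 5.09 and 4.89 FPKM with RSL3 (-0.31 ± 0.085, adjusted p = 0.0767), again without overlap.

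Prpf39 and Prpf40b, relatives of yeast U1 proteins, were among the Prpf genes in which RSL3 replicate 1 stood farthest from RSL3 replicates 2 and 3. Prpf39 measured 3.72, 3.29 and 3.58 FPKM with DMSO and 1.92, 4.49 and 3.82 FPKM with RSL3 (-0.087 ± 0.22, adjusted p = 0.852). Prpf40b had the highest difference of all 69 (0.23 ± 0.12, adjusted p = 0.281), with 6.76, 6.66 and 6.40 FPKM with DMSO and 9.48, 6.62 and 7.98 FPKM with RSL3. RSL3 replicate 1 was the lowest of all libraries for Prpf39 and the highest for Prpf40b.

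**Figure D2:**
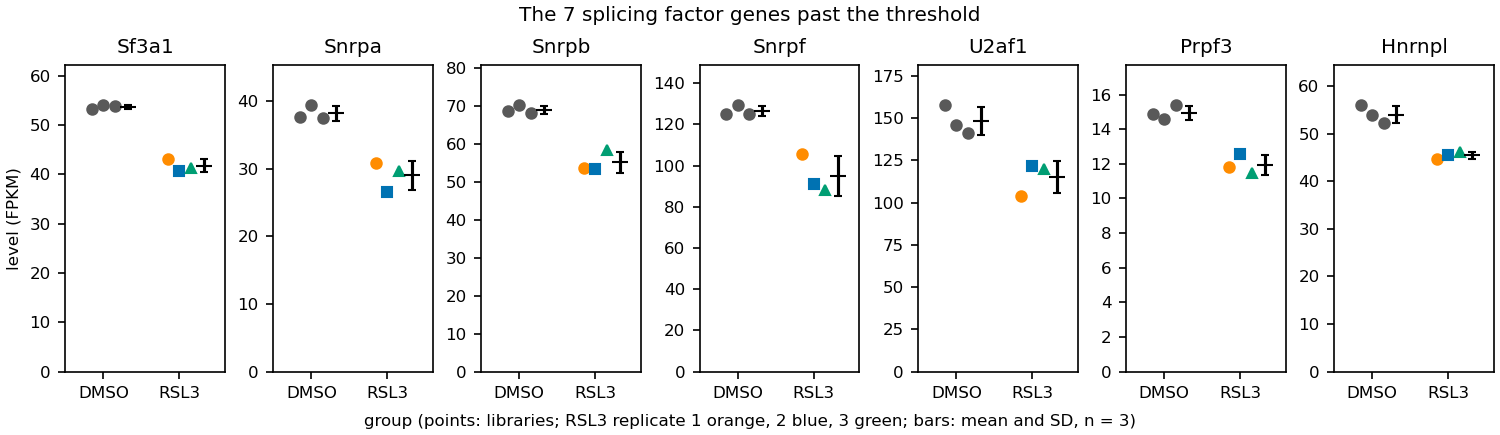
Levels in FPKM (vertical axes from 0) of the 7 splicing factor genes past the threshold, with the 3 DMSO libraries in grey, the RSL3 libraries in colour, and the mean and SD beside each group. Every RSL3 library lies below every DMSO library in each panel, as for Sf3a1 with 43.2, 40.6 and 41.3 against 53.2, 54.0 and 53.9 FPKM.

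Of the 10 SR protein genes 0 passed at the adjusted threshold in limma, while 6 had an unadjusted p under 0.05, which 24.1% of all tested genes reached in either direction. The class median was -0.20, and in 6 of the 10 genes all RSL3 libraries lay below all DMSO libraries. The latter held for 19.6% of all tested genes. Srsf2, whose protein binds exonic enhancers, measured 57.7, 58.5 and 52.5 FPKM with DMSO and 39.6, 47.2 and 44.9 FPKM with RSL3 (-0.35 ± 0.083, adjusted p = 0.0523). Srsf7, of a protein that also shuttles to the cytoplasm, measured 50.3, 51.7 and 49.0 FPKM with DMSO and 32.4, 41.7 and 39.6 FPKM with RSL3 (-0.41 ± 0.097, adjusted p = 0.0531). Srsf6, of another exon-binding activator, measured 39.7, 41.4 and 40.2 FPKM with DMSO and 26.1, 34.3 and 33.8 FPKM with RSL3 (-0.36 ± 0.11, adjusted p = 0.0900). In each of these 3 genes RSL3 replicate 1 was the lowest library and replicates 2 and 3 also lay under the DMSO libraries. Without RSL3 replicate 1 all 3 passed, with adjusted p-values of 0.0380 for Srsf2, 0.0165 for Srsf7 and 0.0253 for Srsf6. In that fit 7.16% of all tested genes fell, where 3.92% fell with all libraries. None of the 3 passed with a DMSO library or RSL3 replicate 3 left out.

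Srsf3, a small SR protein that also serves mRNA export, measured 40.6, 41.5 and 37.4 FPKM with DMSO and 29.9, 36.6 and 33.4 FPKM with RSL3 (-0.25 ± 0.087, adjusted p = 0.131). Srsf1, a founding member of the family, measured 16.3, 17.9 and 16.6 FPKM with DMSO and 14.5, 14.9 and 13.7 FPKM with RSL3 (-0.22 ± 0.071, adjusted p = 0.113). Neither gene overlapped between the groups. Srsf5 and Srsf4, further SR protein genes, had RSL3 replicate 1 as their highest library, and their groups overlapped. Srsf5 measured 21.0, 21.9 and 20.9 FPKM with DMSO and 24.2, 22.0 and 20.6 FPKM with RSL3 (0.062 ± 0.075, adjusted p = 0.666). Srsf4 measured 32.7, 31.8 and 31.3 FPKM with DMSO and 35.2, 27.5 and 27.2 FPKM with RSL3. Its difference was -0.098 over all libraries (adjusted p = 0.618) and -0.22 without RSL3 replicate 1 (adjusted p = 0.0369).

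The SR-like genes Tra2a and Tra2b encode activators that bind GAA-rich exons, and 0 of the 2 passed in limma. An unadjusted p under 0.05 was reached by 1 of them (Tra2b) and by 24.1% of all tested genes. Tra2b measured 26.7, 27.6 and 24.7 FPKM with DMSO and 13.1, 22.8 and 19.3 FPKM with RSL3. Its groups did not overlap, but the level in RSL3 replicate 1 was far below the other RSL3 libraries (-0.53 ± 0.18, adjusted p = 0.127). Without that library Tra2b stood at -0.31 (adjusted p = 0.0618), and the median of both genes was -0.19 in place of -0.35. Tra2a measured 15.5, 15.3 and 15.1 FPKM with DMSO and 11.4, 15.2 and 14.0 FPKM with RSL3 (-0.17 ± 0.10, adjusted p = 0.363). Its RSL3 replicate 2 lay within the DMSO range.

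The hnRNP genes had the median nearest to 0 of the 7 classes, -0.098, and 19 of 20 differences were below 0, where 56.4% of all tested genes were. The count below 0 was 12 with GC and length trends removed and 15 after quantile normalization, where 49.4% and 49.7% of all tested genes were below 0. The median was -0.20 without RSL3 replicate 2 and -0.052 after quantile normalization. Hnrnpl was the 1 gene of 20 past the threshold. Hnrnpl (ENSMUSG00000015165.16, chromosome 7, 28808541 to 28822266, plus strand), which binds CA repeats, measured 56.0, 53.8 and 52.3 FPKM with DMSO and 44.7, 45.5 and 46.1 FPKM with RSL3. The RSL3 libraries were close together and under the DMSO libraries, and Hnrnpl fell by 0.24 ± 0.056 on the log2 scale (adjusted p = 0.0495). With a pseudocount of 0.1 its adjusted p was 0.0511, and with no filter on low values 0.0514. In 5 of the 20 genes all RSL3 libraries lay below all DMSO libraries, a share of 25.0% against 19.6% of all tested genes.

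Hnrnpa1, an exon silencer and the most abundant of the 70 genes, measured 380, 395 and 373 FPKM with DMSO and 370, 388 and 347 FPKM with RSL3. The groups overlapped (-0.056 ± 0.063, adjusted p = 0.642), and the difference was 0.095 after quantile normalization and 0.043 with trends removed. Hnrnpk, which binds C-rich sequence, measured 47.4, 51.5 and 47.1 FPKM with DMSO and 42.7, 51.0 and 44.0 FPKM with RSL3 (-0.085 ± 0.082, adjusted p = 0.586). Hnrnph1, which binds G runs, measured 17.2, 20.2 and 16.2 FPKM with DMSO and 15.2, 20.5 and 14.7 FPKM with RSL3 (-0.098 ± 0.14, adjusted p = 0.714). In Hnrnpk and Hnrnph1 RSL3 replicate 2 lay inside or above the DMSO range.

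Hnrnpu, Hnrnpc, Hnrnpa2b1 and Hnrnpd each had RSL3 replicate 1 as the lowest of the 6 libraries. Hnrnpu, the gene of a scaffold-associated nuclear protein, measured 46.5, 44.1 and 45.0 FPKM with DMSO and 26.4, 40.7 and 36.9 FPKM with RSL3 (-0.40 ± 0.15, adjusted p = 0.156), and -0.22 without RSL3 replicate 1 (adjusted p = 0.0621). Hnrnpc, whose product binds U tracts, measured 59.9, 60.4 and 56.5 FPKM with DMSO and 38.3, 58.1 and 51.4 FPKM with RSL3 (-0.27 ± 0.14, adjusted p = 0.281). Hnrnpa2b1, a relative of Hnrnpa1, measured 49.4, 48.0 and 47.4 FPKM with DMSO and 36.1, 47.2 and 42.6 FPKM with RSL3 (-0.21 ± 0.097, adjusted p = 0.247). For Hnrnpu and Hnrnpa2b1 every RSL3 library was below every DMSO library, while Hnrnpc and Hnrnpd overlapped. Hnrnpd, which binds AU-rich elements, stood at -0.32 ± 0.14, adjusted p = 0.215. Hnrnph3, a relative of Hnrnph1, measured 5.94, 5.95 and 5.74 FPKM with DMSO and 4.85, 4.85 and 4.68 FPKM with RSL3. The replicates of Hnrnph3 were close and its groups apart (-0.25 ± 0.072, adjusted p = 0.0885), and it passed without RSL3 replicate 1 (adjusted p = 0.0478).

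**Figure D3:**
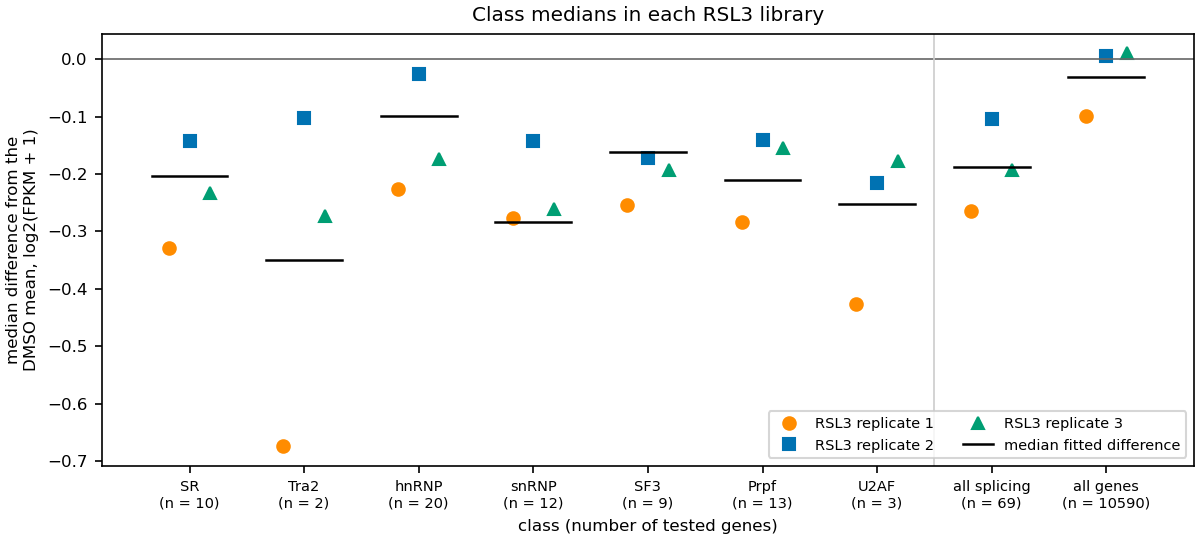
Median over the tested genes of each class (horizontal axis, with the number of genes) of the difference of each RSL3 library from the DMSO mean on the log2(FPKM + 1) scale. Points are the 3 RSL3 libraries and black lines the median fitted difference; all class medians lie below 0, from -0.67 for Tra2 in RSL3 replicate 1 to -0.026 for hnRNP genes in replicate 2.

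Library by library, the classes were ordered differently. Over all 69 genes the median difference from the DMSO mean was -0.26 in RSL3 replicate 1, -0.10 in replicate 2 and -0.19 in replicate 3, where the medians of all tested genes were -0.098, 0.0055 and 0.0099. In the SR class the medians were -0.33, -0.14 and -0.23 in RSL3 replicates 1, 2 and 3. In the snRNP class they were -0.28, -0.14 and -0.26, and in the hnRNP class -0.23, -0.026 and -0.17. The SF3 class had -0.25, -0.17 and -0.19. In RSL3 replicate 1, 4 of its 9 genes were below and 4 above both other RSL3 libraries. Against the DMSO mean, 6 of the 9 were below in that library, and differences ranged from -0.94 for Sf3b6 to 0.12 for Sf3b4. The 2 Tra2 genes had -0.67, -0.10 and -0.27. The Prpf class had -0.28, -0.14 and -0.16, and the U2AF class -0.43, -0.22 and -0.18. Each class median was below 0 in each of the 3 libraries.

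In RSL3 replicate 1, 57 of the 69 genes lay below every DMSO library, where 52.2% of all tested genes did. In replicate 2, 40 did (35.4% of all tested genes), and in replicate 3, 57 did (34.4%). RSL3 replicate 1 was the lowest of all 6 libraries for 40 genes, or 58.0%, where this held for 41.9% of all tested genes. It was above both other RSL3 libraries for 17 genes, or 24.6%, where this held for 29.1% of all tested genes. The 5 genes in which it stood farthest below the mean of the other RSL3 libraries included Snrpe (-0.93), Prpf39 (-0.82), Sf3b1 (-0.64) and Tra2b (-0.64), on the log2 scale. The 5 in which it stood farthest above were Srsf4 (0.35), Prpf40b (0.34), Sf3a2 (0.32), Snrpn (0.27) and Hnrnpul1 (0.25), a paralog of Hnrnpu.

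Both sets differed in the GC content of their transcripts. The 5 farthest below had between 37.0% and 42.1% GC, and the 5 farthest above between 45.5% and 62.2%. The median was 46.2% over the 69 and 50.5% over all tested genes. Across the 69 genes, the difference of RSL3 replicate 1 from the mean of replicates 2 and 3 correlated with GC content at r = 0.63, and across all tested genes with a GC value at r = 0.65. Such genes share their libraries and are no independent replicates. Against the DMSO mean the correlation over the 69 was 0.51 in RSL3 replicate 1, -0.45 in replicate 2 and 0.10 in replicate 3, and over all tested genes it was 0.53, -0.18 and 0.10. Among the 23 genes of lowest GC the median differences were -0.49, -0.024 and -0.21 in RSL3 replicates 1, 2 and 3. Among the 23 of highest GC they were -0.25, -0.21 and -0.20, and 5 of the 7 genes that fell were in this group. With GC and length trends removed from all libraries, 17 of the 69 fell and 0 rose (24.6%, where 9.1% of all tested genes fell and 7.7% rose), and 55 of 69 differences were below 0, where 49.4% of all tested genes were. These 17 held 5 of the 7 genes above, without Snrpf and Prpf3, and added Srsf2, Srsf6, Srsf7, Tra2b, Hnrnpu, Sf3a2, Sf3b6, U2af2, Prpf6, Prpf8, Prpf19 and Prpf38b.

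**Figure D4:**
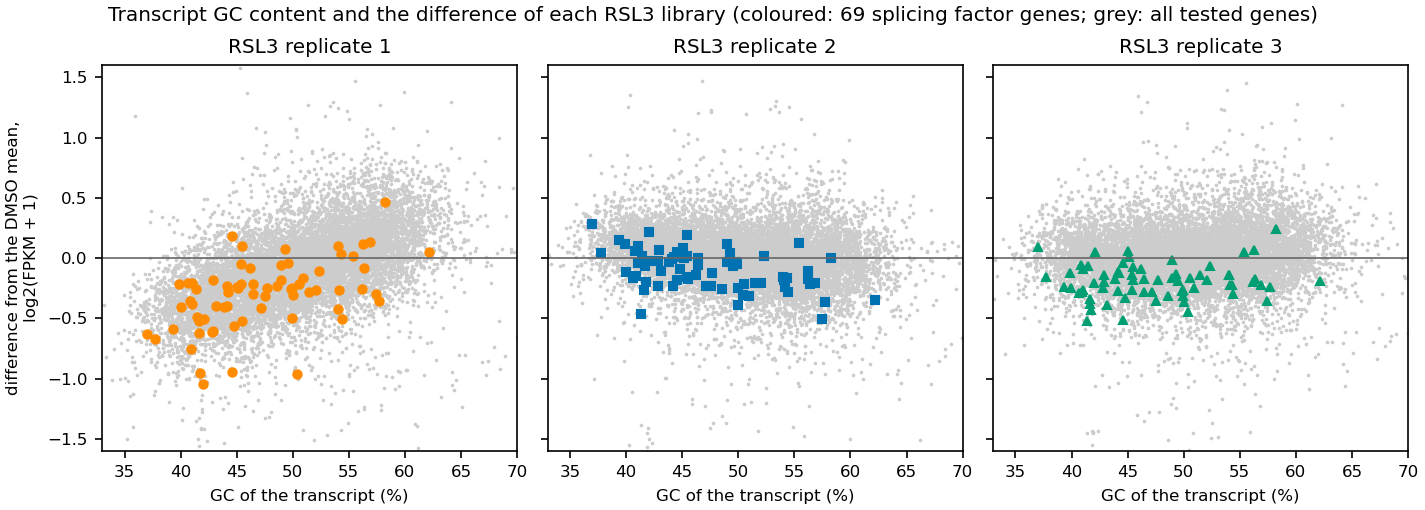
GC content of the transcript in percent (horizontal axis) against the difference of each RSL3 library from the DMSO mean on the log2(FPKM + 1) scale (vertical axis, cut at 1.6 either way), for the 69 splicing factor genes in colour and all tested genes in grey. In RSL3 replicate 1 genes of low GC lie lowest (r = 0.51 over the 69), in replicate 2 the slope is opposite (-0.45 over the 69, -0.18 over all tested genes), and in replicate 3 it is weak (0.10).

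Other genes of the splicing machinery, in 7 lists outside the symbol rule, were read from the same fit. Of 165 tested, 16 fell and 1 rose, with a median difference of -0.12 and 132 below 0. These shares were 9.70% and 80.0% for the genes that fell and those below 0, where over all tested genes 3.92% fell and 56.4% were below 0. The snRNP proteins outside the rule had 7 of 33 lower and 0 higher (median -0.19). The 3 with the smallest p were the tri-snRNP cyclophilin gene Ppih (11.9 ± 0.243 to 8.43 ± 0.599 FPKM, SD, n = 3, limma adjusted p = 0.0176), the U5 gene Snrnp40 (15.2 ± 0.397 to 11.5 ± 0.285 FPKM) and Txnl4a, also of U5 (31.2 ± 0.712 to 23.9 ± 1.33 FPKM). Of 10 Lsm genes 2 fell, Lsm3 (-0.40) and Lsm4 (-0.26), both of the Lsm ring that binds U6. Among 18 genes of SMN and snRNP assembly 1 fell, Smn1 (23.9 ± 0.827 to 19.0 ± 0.422 FPKM), whose product loads the Sm ring onto its RNA. That was 5.56% of this list, near the 3.92% of all tested genes. Of the 18, 66.7% had a difference below 0, where 56.4% of all tested genes did. Among 27 genes of catalytic activation and disassembly 1 fell, Ctnnbl1 (-0.35), a share of 3.70% against 3.92% of all tested genes.

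Of 21 exon junction genes and RS-rich coactivators 3 fell, namely the junction helicase gene Eif4a3 (85.0 ± 1.73 to 61.8 ± 4.47 FPKM), Srrm1 (-0.43) and Rnps1 (-0.29). Of 48 other splicing regulators 2 fell (4.17%, near the 3.92% of all tested genes), both of the FET family of RNA-binding proteins. They were Taf15 (44.0 ± 0.919 to 31.1 ± 1.34 FPKM, limma adjusted p = 0.00679) and Ewsr1 (-0.27). Among 8 genes of kinases and the nuclear importer of SR proteins 0 fell and 1 rose, Dyrk1b, from 8.66 ± 0.203 to 14.8 ± 1.26 FPKM (0.70 on the log2 scale, limma adjusted p = 0.00562). Every RSL3 library was above every DMSO library for Dyrk1b. Over both directions, 2 of the 165 (1.21%) passed with DMSO replicate 1 left out, where 1.85% of all tested genes did. With DMSO replicates 2 and 3 left out in turn it was again 2 each time (1.49% and 1.37% of all tested genes). Leaving out RSL3 replicate 3 gave 4 (2.42%, where 1.78% of all tested genes passed), leaving out RSL3 replicate 2 gave 21 (12.7% against 6.96%), and leaving out RSL3 replicate 1 gave 29 (17.6% against 12.3%).

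Circular RNAs, made by back-splicing within a gene, gave a second readout of the same genes. Of 1414 circRNAs named by coordinates, 11 began and ended on exon ends of 10 splicing factor genes. The 1754 named by a circBase identifier were not assigned to genes. The 11 carried 32, 13 and 7 back-splice reads in DMSO replicates 1, 2 and 3 and 4, 40 and 24 in RSL3 replicates 1, 2 and 3, of between 5226 and 9409 reads per library. The circRNA of Hnrnpu (chromosome 1, 178323134 to 178323713, minus strand) joins exons that overlap no annotated coding sequence and had 4, 2 and 2 reads with DMSO and 1, 11 and 9 with RSL3. That of Hnrnpa2b1 (chromosome 6, 51463411 to 51467295) had 9, 4 and 1 reads with DMSO and 0, 1 and 4 with RSL3. Of the 5 tested, none passed in limma (adjusted p between 0.851 and 0.998) or in edgeR. None of the 5 had an unadjusted p under 0.05 in limma, and among all 1662 tested circRNAs 0 passed in limma, 129 (7.76%) had an unadjusted p under 0.05, and 1 passed in edgeR. No difference in these circRNAs was detected at this depth. The labels name a poly(A) selection kit, and circRNAs have no poly(A) tail.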

How the data were processed

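RNA of 6 libraries was sequenced. Each mRNA and lncRNA table deposited by the authors holds FPKM, and per the submitters' processing notes cutadapt, HISAT2, StringTie 1.3.3 and the build GRCm38 were used; annotation release, strand setting and low-value filter are not named there. The deposited circRNA values, headed CPM, were treated as a signal: divided by the smallest value of the library, 100% lay within 0.01 of a whole number, taken as reads. The genes and gene lists were chosen with earlier results of these data known. Genes reaching 1 FPKM in 3 or more libraries were tested on log2(FPKM + 1) in limma 3.58.1 (R 4.3.3, mean-variance trend, two-sided, Benjamini-Hochberg over all 10590 genes, threshold 0.05). The circRNAs above 0 in at least 3 libraries were tested on log2(value + 140), 140 being the value of about 1 read, with edgeR 4.0.16 on the reads as an alternative. Both tests were also run on simulated data that held no trend with GC content. That run does not measure the error rate of the calls here. Fold changes on the log2(FPKM + 1) scale understate those of low genes. Positions, lengths and GC content (longest coding transcript) came from GENCODE M21. Named genes were those past the threshold, in each class the 2 with the smallest p and the most abundant, the 5 at each end of the contrast of RSL3 replicate 1 with the other RSL3 libraries, and a fixed set of well-known members; Snrpc, Snrpa1, Snrpb2, Snrpd1, Snrpd2, Snrpd3, Snrpg, U2af1l4, Hnrnpa0, Sf3b4, Prpf6 and Prpf19 were chosen after their values were seen; 1 gene of the named set is counted but not reported here. Alternatives were other pseudocounts, filters, scalings, variance models, a replicate block, removal of GC and length trends, and leaving out each library.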

Additional observations from a re-analysis of the deposited data

How the results depend on the processing

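In the fit as reported, 7 splicing factor genes fell, and 676 of all genes (6.38%) and 17 of the other splicing genes (10.3%) passed. With the filter at 5 FPKM, 10 of 68 splicing factor genes (14.7%) and 19 other splicing genes (13.2%) passed, where 9.32% of all tested genes did. With quantile normalization 1 splicing factor gene and 10 other splicing genes passed, and without the variance trend 4 and 11. With median-ratio scaling 5 (3 of the 7) and 12 passed. In that order, the shares were 1.45%, 5.80% and 7.25% of the splicing factor genes. They were 6.06%, 6.67% and 7.27% of the other splicing genes, near the 6.41%, 5.44% and 6.29% of all tested genes. Hnrnpl alone was lost with a pseudocount of 0.1 and with no filter. The library numbers were not used as pairs, since deviations of same-numbered libraries correlated at -0.15, 0.049 and -0.062. With the replicate block 0 splicing factor genes passed in limma, 3 other splicing genes (1.82%) and 253 of all genes (2.39%). In that fit 29 splicing factor genes had an unadjusted p under 0.05, where 20.7% of all tested genes did. With GC and length trends removed 17 splicing factor genes (24.6%), 29 other splicing genes (17.6%) and 1777 of all genes (16.8%) passed. Leaving out single libraries gave between 0 and 18 splicing factor genes, between 2 and 29 other splicing genes and between 145 and 1299 of all genes. In these alternatives 0 splicing factor genes rose. The snRNP median of -0.28 was -0.12 with trends removed, and it was -0.31 to -0.21 without single libraries. The SF3 median of -0.16 was -0.073 after quantile normalization and -0.23 to -0.15 without single libraries. Signs turned only for genes that had not passed, in 12 of the 69 with trends removed, 6 after quantile normalization, 2 with median-ratio scaling, 7 without RSL3 replicate 1 and at most 3 without any other library. Among the genes named by rule, with trends removed Prpf39 stood at 0.038, Sf3b1 at 0.0048, Hnrnpa1 at 0.043, Hnrnpk at 0.015 and Snrpn at 0.011, after quantile normalization Hnrnpa1 at 0.095, and without RSL3 replicate 1 Prpf39 at 0.19 and Sf3b1 at 0.13. Without single libraries Prpf39 ranged from -0.27 to 0.19 and Sf3b1 from -0.23 to 0.13. The cause of these shifts was not tested. The FPKM tables give no read depth.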
